A study of Mus musculus with 4 samples.

Results

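PRDM6 binding in introns 2 and 3 of mouse genes was described from 1548 peaks, 11.1% of the 13977 peaks that both PRDM6 immunoprecipitations shared. A peak was counted when its annotation began with an intron and named intron 2 or intron 3 of a transcript, so no measured value chose the members. Of the 1548 peaks, 993 (64.1%, 95% Wilson interval 61.7% to 66.5%) lay in intron 2 and 555 (35.9%) in intron 3. They made up 30.9% of the 5016 intronic peaks, beside 1765 peaks in first introns and 1703 in introns 4 and later.

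The cells were primary smooth muscle cells (SMCs) from the outflow tract of Prdm6 fl/fl mouse embryos, the muscle of the vessels that leave the heart, and all of them overexpressed FLAG-tagged PRDM6 from a lentivirus. The study's mice were on a C57/Black6 background, and its sections differ on the late embryonic day at which the cells were taken, so no day is given here. The 2 PRDM6 ChIP libraries held chromatin precipitated with a FLAG antibody, and the 2 Input libraries held chromatin of the same cells without precipitation. The assay therefore recorded the tagged, overexpressed protein, with no library from cells lacking it, and the study describes its immunoprecipitations both as independent replicates and as made from the same sample. A list of peaks holds no expression values, so the identity of the cells could not be checked against marker genes here.

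PRDM6 is a member of the PR domain family, zinc finger proteins that bind DNA and recruit enzymes that modify histones, and it is enriched in SMCs. Introns of vertebrate genes hold many enhancers, short sequences where transcription factors bind to regulate the same gene or a neighbour. AP-1, a dimer of Fos and Jun proteins, and the TEAD proteins, which carry YAP and TAZ to DNA in Hippo signalling, occupy many enhancers of mesenchymal cells. A CArG box is the site of serum response factor, which drives contractile genes of SMCs with myocardin or the MRTF proteins.

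The sequences at the strongest summits show what such a peak holds. Each is the summit base with 100 bases on either side, from the forward strand of mm10 (GRCm38, RefSeq sequence), and capitals mark an AP-1 motif, TGACTCA or its reverse complement TGAGTCA, or a TEAD motif, AGGAATGC, AGGAATGT, GGGAATGC or GGGAATGT on either strand. Gm4131, Ltbp1 and Slco2a1 had the highest −log10 p-values among peaks with an AP-1 motif alone, and in each the motif stood to one side of the summit, with its centre 63.0 bp before, 47.0 bp before and 34.0 bp after it in the printed direction.
Gm4131 intron 2 (chr14:62509461-62509661): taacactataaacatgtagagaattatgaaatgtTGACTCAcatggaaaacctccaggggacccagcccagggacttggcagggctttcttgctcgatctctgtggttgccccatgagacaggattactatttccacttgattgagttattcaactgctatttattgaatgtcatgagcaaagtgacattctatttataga
Ltbp1 intron 3 (chr17:75110613-75110813): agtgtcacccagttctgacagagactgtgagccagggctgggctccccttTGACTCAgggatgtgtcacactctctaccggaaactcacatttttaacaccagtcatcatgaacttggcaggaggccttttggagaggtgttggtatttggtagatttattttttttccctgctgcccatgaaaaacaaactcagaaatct
Slco2a1 intron 3 (chr9:103061731-103061931): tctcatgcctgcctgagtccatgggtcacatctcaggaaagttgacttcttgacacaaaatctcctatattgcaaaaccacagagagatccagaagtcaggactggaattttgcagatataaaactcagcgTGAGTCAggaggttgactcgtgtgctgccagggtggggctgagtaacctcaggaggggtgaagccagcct

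Zfp664 and Samd4 led the peaks with a TEAD motif alone, after the one in Garem1, whose sequence is not shown. The capitals in Samd4 read the TEAD motif on the reverse strand.
Zfp664 intron 3 (chr5:124900389-124900589): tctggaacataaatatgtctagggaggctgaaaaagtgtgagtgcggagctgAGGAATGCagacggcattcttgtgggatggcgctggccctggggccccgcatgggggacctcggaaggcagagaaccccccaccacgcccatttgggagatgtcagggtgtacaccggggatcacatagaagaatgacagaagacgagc
Samd4 intron 2 (chr14:46966315-46966515): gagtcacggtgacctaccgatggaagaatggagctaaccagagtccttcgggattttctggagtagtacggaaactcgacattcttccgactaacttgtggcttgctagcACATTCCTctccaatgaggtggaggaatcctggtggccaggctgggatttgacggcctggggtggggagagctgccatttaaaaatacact

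Only 10 of the 1548 summits (0.646%, 0.351% to 1.19%) held both motifs, against 144 of 13977 (1.03%) in the whole list. The strongest of these peaks were in Slco3a1 and Cux1. In Slco3a1 the motif centres stood 11.5 bp and 32.0 bp after the summit.
Slco3a1 intron 2 (chr7:74376732-74376932): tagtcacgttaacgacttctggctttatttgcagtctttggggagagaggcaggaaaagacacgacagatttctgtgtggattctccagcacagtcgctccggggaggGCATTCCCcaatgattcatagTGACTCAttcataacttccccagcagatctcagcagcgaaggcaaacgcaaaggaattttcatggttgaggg
Cux1 intron 2 (chr5:136466062-136466262): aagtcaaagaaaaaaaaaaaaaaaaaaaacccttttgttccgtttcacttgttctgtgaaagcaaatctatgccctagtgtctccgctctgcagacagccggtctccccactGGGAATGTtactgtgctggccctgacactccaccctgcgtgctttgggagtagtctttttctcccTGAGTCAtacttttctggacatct

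Neither motif was found at 1204 summits (77.8%, 75.6% to 79.8%), against 79.3% in the whole list. Among them were the strongest peaks of all, those in Syt6, Col8a1 and Fgfr2, the last not shown.
Syt6 intron 3 (chr3:103593779-103593979): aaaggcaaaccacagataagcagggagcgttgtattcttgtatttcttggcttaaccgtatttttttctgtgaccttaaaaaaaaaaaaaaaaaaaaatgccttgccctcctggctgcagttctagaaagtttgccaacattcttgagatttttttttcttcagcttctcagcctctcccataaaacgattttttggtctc
Col8a1 intron 2 (chr16:57671983-57672183): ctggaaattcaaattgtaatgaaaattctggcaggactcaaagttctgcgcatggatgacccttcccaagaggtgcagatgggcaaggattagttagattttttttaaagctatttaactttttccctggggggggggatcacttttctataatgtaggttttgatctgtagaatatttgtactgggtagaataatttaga

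The strength of a peak is given here as the −log10 p-value of the authors' peak caller against the input, once for each replicate, with the smaller value standing for the matched peak. The list named the replicates only by their order, so they are called first-listed and second-listed. The strongest of the 1548 peaks lay in intron 3 of Syt6, a synaptotagmin of vesicle traffic, with values of 23.2 and 21.9, and its replicate summits lay 4 bp apart. Col8a1, which encodes a short-chain collagen of the vessel wall, held the next in intron 2, with 21 and 19.9. Its matched value of 19.9 was level with that of the peak in Fgfr2, described below. A peak in intron 3 of Ltbp1 had 16.8 and 24.3. LTBP1 binds latent TGF-beta and stores it in the matrix. In Slco2a1, which encodes a prostaglandin transporter, the replicates gave 16.8 and 17.4 at the same summit base (0 bp apart). Of the peaks in Syt6, Col8a1, Ltbp1 and Slco2a1, the one in Ltbp1 had the largest gap between replicates.

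The other 8 of the 12 strongest peaks lay in genes of mixed roles. Garem1, an adaptor of growth factor signalling, held a peak with values of 17.9 and 19.9. Samd4, which encodes an RNA-binding repressor of translation, had 14.9 and 17.8, and Zfp664, a zinc finger gene, had 14.9 and 18.8. In Mllt3, a reader of acylated histones that works with the elongation machinery, the values were 14.0 and 16.7, and the summits lay 262 bp apart. The remaining 4 were in Fgfr2 (22.1 and 19.9), Gm4131 (18.9 and 23.2) and the noncoding transcripts 2610307P16Rik (14.8 and 14.9) and Gm10248 (15.8 and 14.7).

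Most of the 1548 peaks were far weaker and poorly reproduced, as in the whole list. Their median −log10 p-value was 5.51, with quartiles of 4.39 and 6.92 and a range of 3.03 to 21.9, beside a median of 5.53 over all peaks. The irreproducible discovery rate (IDR) ranks the peaks of each replicate and estimates, down to each matched peak, the expected share of irreproducible ones. A global IDR of at most 0.05, read from the rounded score of the list, was reached by 36 peaks (2.33%, 1.68% to 3.20%), where 3.33% of the whole list reached it. By the unrounded IDR 35 of them were within the limit, and the peak in Ntn4 lay just outside at 0.0501. At most 0.01 was reached by 8 (0.517%, 0.262% to 1.02%), where 0.994% of the whole list did. Above 0.5 were 935 peaks (60.4%), against 59.1% of the whole list, and 671 (43.3%) had the lowest score, against 41.4%.

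**Figure D1:**
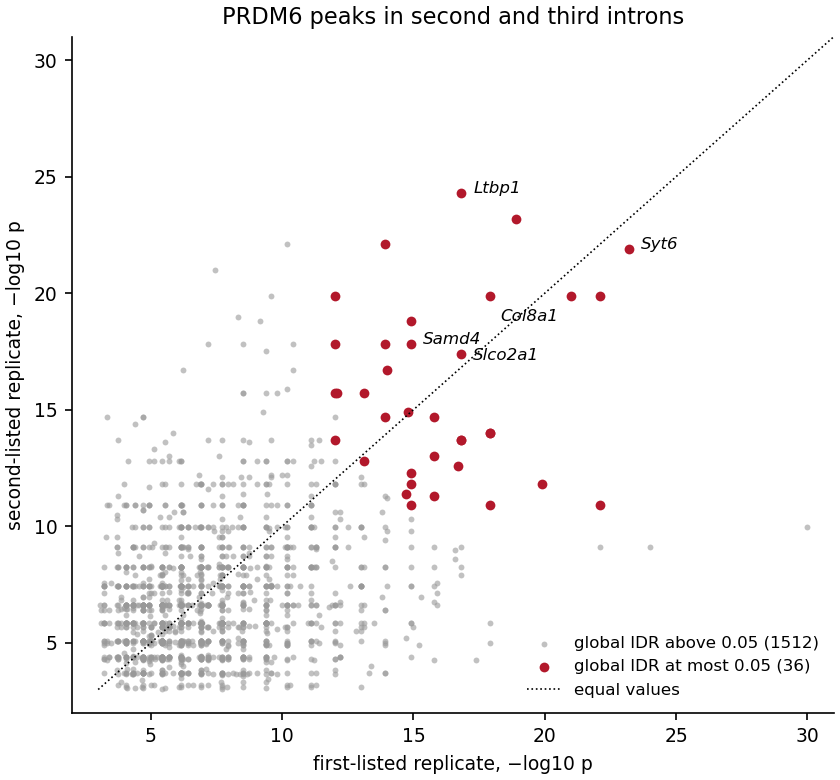
Each point is 1 of the 1548 peaks in introns 2 and 3, with the −log10 p-value of the first-listed replicate on the x axis and of the second-listed on the y axis. The 36 peaks that reached a global IDR of 0.05 (red) are high in both replicates, and the other 1512 (grey) spread widely about the dotted line of equal values, with a Spearman correlation of 0.247 over all points.

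Across the 1548 peaks the median was 6.92 in the first-listed replicate and 6.61 in the second-listed. The first-listed value was the higher at 848 (54.8%), against 52.1% in the whole list. The Spearman correlation between replicates was 0.247 over peaks, which are not independent replicates, and 0.263 over the whole list. The replicate summits lay a median of 119 bp apart, and 728 peaks (47.0%) had them within 100 bp. The peaks were 152 to 3468 bp wide, with a median of 574 bp against 600 bp in the whole list, and covered 1.05 Mb. The p-values keep part of the depth, since the caller takes them from a Poisson distribution. A mean background of 2.61 fragments fitted 886 of the 1548 first-listed values (57.2%, 54.8% to 59.7%), and the median peak among these was 14 fragments high. For the second-listed values the background was 2.39 fragments, which fitted 961 (62.1%, 59.6% to 64.5%), and the median height was 13. Among the fitted first-listed values the quartiles of the height were 12 and 17 fragments, so a few fragments separate the weaker from the stronger peaks, and the heights of the other peaks are unknown.

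The remaining 24 peaks within the IDR limit of 0.05 included several in genes that act in vessels, which are named here after their values were seen. Htr2a, the serotonin receptor that contracts vascular SMCs, held one in intron 2 with values of 17.9 and 14.0. A peak in intron 2 of Atp2b4, a calcium pump of the plasma membrane, had 14.7 and 11.4, and its replicate summits lay 7 bp apart. Eps8, which caps and bundles actin, had 13.9 and 22.1 at a peak with an AP-1 motif. Pde4d, a cyclic AMP phosphodiesterase, had 13.1 and 12.8, and Thrb, a thyroid hormone receptor, had 15.8 and 11.3 at a peak with a TEAD motif. Dusp1, the phosphatase that switches off MAP kinases, had 16.8 and 13.7.

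To find which known motifs these peaks hold, motifs within 100 bp of each summit were compared with windows 1000 bp away on both sides that together held as many positions. AP-1 motifs were concentrated at the summits. Of the 1548 summits 237 held one (15.3%, 13.6% to 17.2%), while only 58 peaks (3.75%, 2.91% to 4.81%) had one in their flanks. The count at summits was 4.09 times that in flanks (two-sided exact McNemar test, p 2.58e-28, or 1.03e-27 after adjustment over 4 motifs). For TEAD motifs the counts were 117 summits (7.56%, 6.34% to 8.98%) and 52 flanks (3.36%, 2.57% to 4.38%), which is 2.25 times as many (exact McNemar p 4.51e-07, adjusted 9.03e-07). Among the 36 peaks within the IDR limit of 0.05 neither motif passed, with 8 summits against 1 flank for AP-1 (adjusted exact McNemar p 0.156) and 6 against 1 for TEAD (adjusted p 0.250). Among the 8 peaks within the limit of 0.01 AP-1 did not pass either (3 summits against 1 flank, unadjusted exact McNemar p 0.625). In the whole list 14.3% of summits held an AP-1 motif and 7.45% a TEAD motif in a window of the same length.

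A 6-letter motif, TTTCAT or TTTCCT on either strand, was common everywhere. It was present at 732 summits (47.3%) and in 644 flanks (41.6%), a ratio of 1.14 (exact McNemar p 0.00152, adjusted 0.00202), and 43.1% of all summits in the list held it. The test was passed in 6 of 10 alternatives. The call was lost with the summits of the second-listed replicate alone (ratio 1.07, adjusted exact McNemar p 0.108) and among peaks whose replicate summits lay within 100 bp (1.08, adjusted p 0.265), and among the 36 and the 8 peaks within the IDR limits (adjusted p 1.00 in both). A CArG box, which has 6 bases of A or T between CC and GG, occurred at 30 summits (1.94%) and in 20 flanks (1.29%), beside 1.41% of all summits. This ratio of 1.5 did not pass the test (exact McNemar p 0.203, adjusted 0.203), although it did in 2 of 8 alternatives, the second-listed summits alone (29 against 13, ratio 2.23, adjusted p 0.0260) and a window of 200 bp (57 against 36, ratio 1.58, adjusted p 0.0354). A match is a run of letters and was not tested as a site of the factor.

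**Figure D2:**
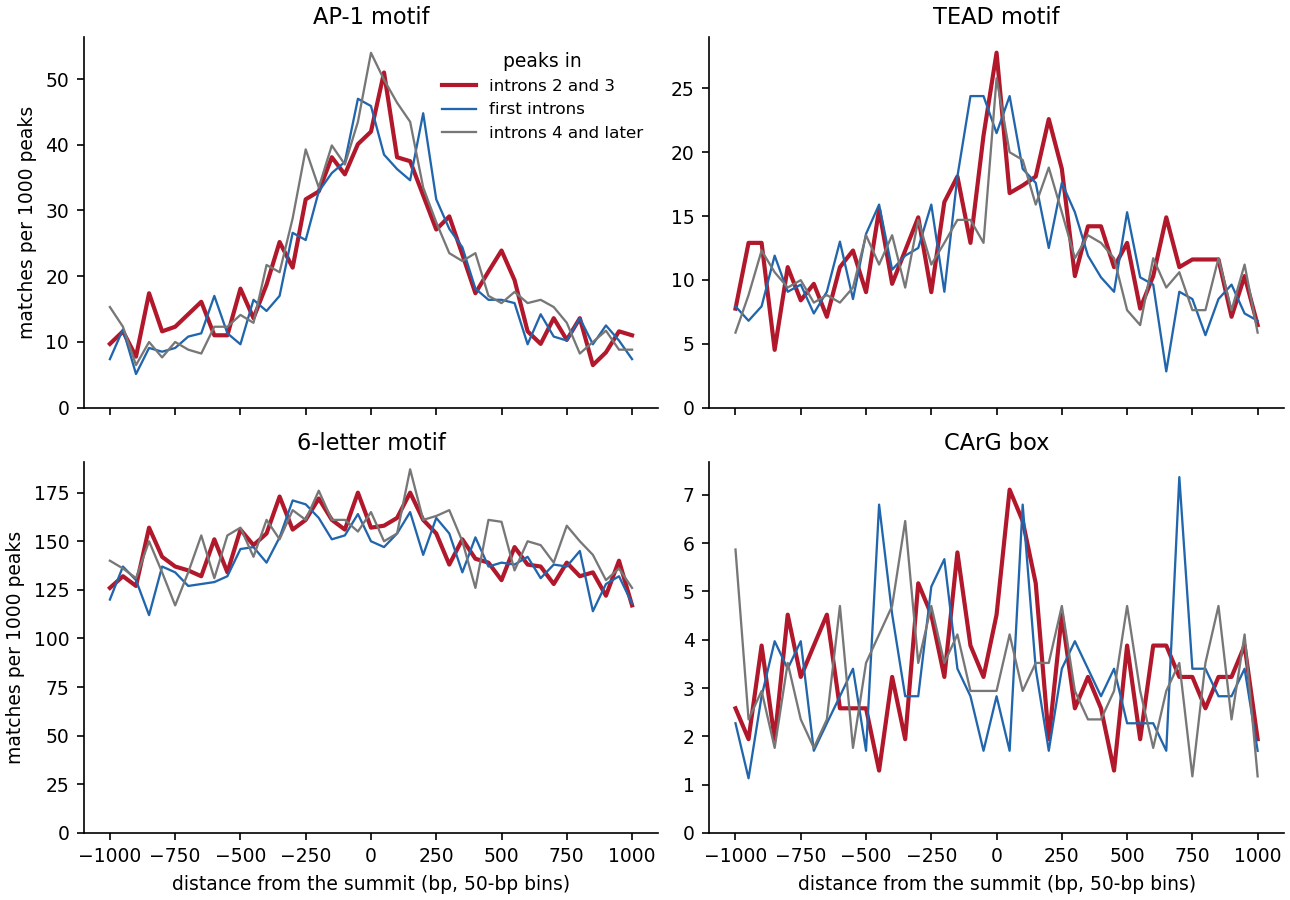
Matches per 1000 peaks (y axis) in 50-bp bins of the distance from the summit (x axis, bp), for 1548 peaks in introns 2 and 3 (red), 1765 in first introns (blue) and 1703 in introns 4 and later (grey). AP-1 and TEAD matches of all 3 sets rise towards the summit, while the 6-letter motif rises little and the CArG box is too rare for its profile to be read.

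Among the 237 summits with an AP-1 motif, the centre of the nearest one lay a median of 47.0 bp away, and within 50 bp at 131 (55.3%). For TEAD the median was 36.5 bp, and 75 of 117 (64.1%) were within 50 bp. The TEAD form AGGAATGT was the most frequent, at 61 summits, followed by AGGAATGC at 29, GGGAATGT at 20 and GGGAATGC at 12. Peaks with an AP-1 motif had a median −log10 p-value of 5.69 against 5.42 without, and 8 of 237 (3.38%, 1.72% to 6.52%) against 28 of 1311 (2.14%, 1.48% to 3.07%) were within the IDR limit of 0.05. With a TEAD motif the median was 5.84 against 5.46, and 6 of 117 (5.13%, 2.37% to 10.7%) against 30 of 1431 (2.10%, 1.47% to 2.98%) reached that limit. These are descriptions, and the intervals overlap for the peaks in introns 2 and 3. In the whole list 5.86% of peaks with an AP-1 motif and 2.90% without were within that limit. For TEAD the shares in the whole list were 5.38% with and 3.16% without. The summit sequence had a median GC content of 43.3%, against 42.0% in the flanks. The summit base fell in a masked repeat in 18.7% of peaks, against 26.1% of the bases 1000 bp upstream.

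Since the study places much PRDM6 binding in early introns, the peaks of introns 2 and 3 were compared with those of first and of later introns, and intron 2 with intron 3. None of 15 exact two-sided Fisher tests passed the threshold (adjusted p 0.917 to 1.00, and none with an unadjusted p under 0.05). AP-1 motifs were at 15.3% of these summits and at 14.8% in first introns, a difference of 0.466 percentage points (95% Newcombe interval -1.97 to 2.92). Against 16.9% in introns 4 and later the difference was -1.60 points (-4.12 to 0.937). TEAD motifs differed by -0.997 points (-2.85 to 0.876) from first introns, where 8.56% of summits held one, and by 0.453 points (-1.34 to 2.27) from later introns, where 7.11% did.

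For strength and width the intervals of the differences also included 0. A −log10 p-value above the median of the whole list was found for 49.0% of the peaks in introns 2 and 3, 50.3% in first introns (difference -1.28 points, -4.69 to 2.13) and 49.9% in later introns (-0.822 points, -4.26 to 2.62). A global IDR of at most 0.05 was reached by 2.33%, against 3.29% in first introns (difference -0.961 points, -2.10 to 0.184) and 3.05% in later introns (-0.728 points, -1.86 to 0.405). The comparison with first introns had the smallest unadjusted p of the 15, 0.115 by the exact Fisher test. Among peaks with replicate summits within 100 bp this difference was -2.57 points (unadjusted exact p 0.0186), which did not pass after adjustment. Wider than the median of the list were 47.2%, against 47.4% in first introns (difference -0.208 points, -3.61 to 3.20) and 47.8% in later introns (-0.640 points, -4.07 to 2.79).

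Intron 2 and intron 3 did not differ beyond counting error in any of these measures. AP-1 motifs were at 15.7% of 993 and 14.6% of 555 summits (difference 1.12 points, -2.71 to 4.72), and TEAD motifs at 7.55% and 7.57% (-0.0147 points, -2.93 to 2.63). The share above the median −log10 p-value was 48.5% and 49.9% (-1.37 points, -6.55 to 3.81), that with a global IDR of at most 0.05 was 2.32% and 2.34% (-0.0261 points, -1.82 to 1.47), and that wider than the median was 46.3% and 48.6% (-2.32 points, -7.50 to 2.85). The exact p-values of these 5 tests were 0.396 or higher. Peaks of 1 gene are not independent, and the tests treat each peak as a unit, so they cover counting error over peaks and not differences between cultures.

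**Figure D3:**
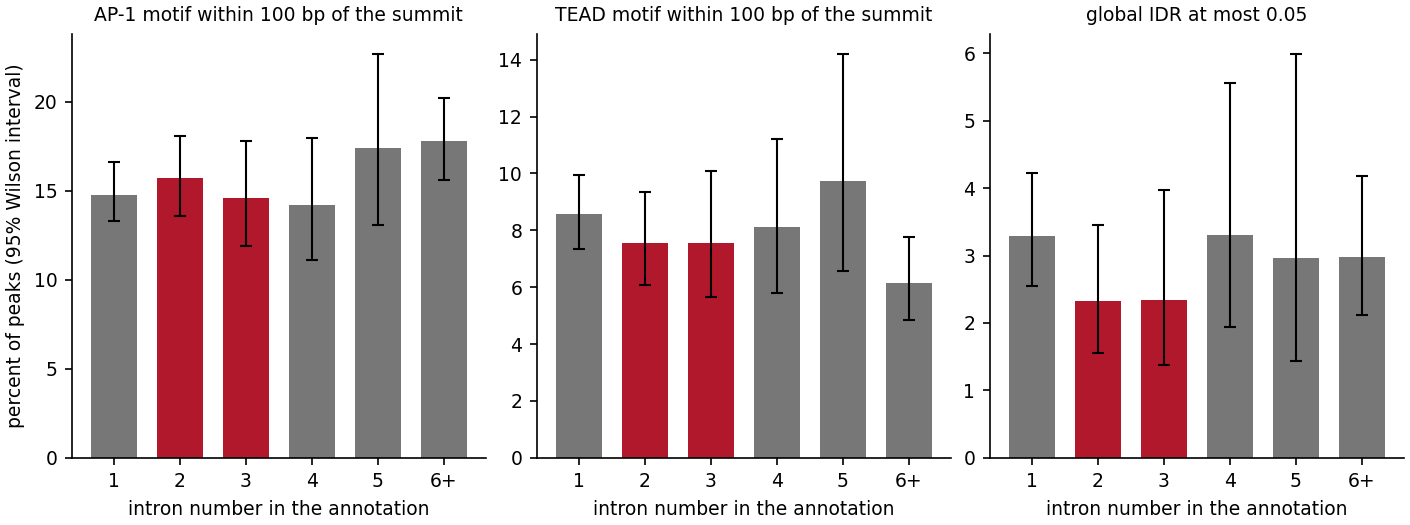
Percent of peaks (y axis) with an AP-1 motif, a TEAD motif or a global IDR of at most 0.05, by intron number in the annotation (x axis, 6+ for intron 6 or later), with 95% Wilson intervals. Introns 2 and 3 (red) hold 993 and 555 peaks, and their intervals overlap those of the other introns (grey) in each panel.

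The host introns were long, but the lengths of introns without a peak were not measured for comparison. The intron named by the annotation was found in the gene models for 1537 of the 1548 peaks, and these fell in 986 distinct introns with a median length of 40.4 kb (quartiles 16.4 and 84.9 kb). Second introns with a peak had a median of 46.3 kb and the others 32.3 kb. Introns of at least 20 kb held 1200 peaks (78.1%). Of the 986 introns, 659 held 1 peak, while 117 held 3 or more and 458 peaks between them. Another of the peaks lay within 5 kb of 457 (29.5%). Within the intron, 467 summits (30.4%) lay in the 5′ part when it was cut in 3 equal parts, 578 (37.6%) in the middle and 492 (32.0%) in the 3′ part. The nearest end of the intron was a median of 11.6 kb away, and 87 summits (5.66%) lay within 1 kb of one.

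**Figure D4:**
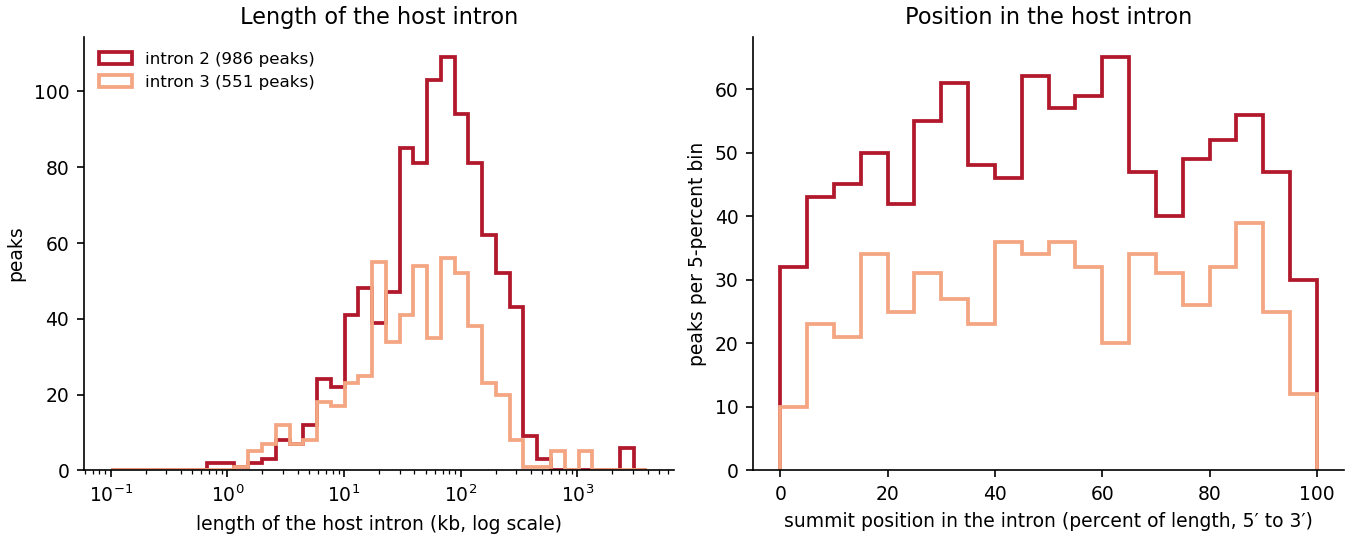
Left, number of peaks (y axis) by length of the host intron (x axis, kb, log scale). Right, number of peaks per 5-percent bin (y axis) by position of the summit from the 5′ to the 3′ end of the intron (x axis, percent). Lines stand for intron 2 (986 peaks, dark red) and intron 3 (551 peaks, light red). Most peaks lie in introns of 20 kb or more, and positions spread along the whole intron.

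An intron number depends on the transcript it is counted in. By the longest transcript of the basic gene models at each summit, 1365 of the 1548 peaks (88.2%) were still in intron 2 or 3, 69 (4.46%) in intron 1 and 57 (3.68%) in intron 4 or later, and 57 had no intron there. A first intron of some other basic transcript also covered 274 summits (17.7%). Of the 1119 peaks that the annotation assigned to their host under its symbol, 367 (32.8%, 30.1% to 35.6%) lay upstream of the transcription start site (TSS) used, which lies inside the gene. The Dusp1 peak is such a case, in a 44.3-kb intron of the gene and 21078 bp upstream of the assigned TSS. The extreme is Fgfr2, a receptor for fibroblast growth factors. All 6 of its peaks lay in a 2909-kb intron of 1 transcript model that reaches across neighbouring genes, and the annotation assigned none of them to Fgfr2. The strongest was assigned to Fam53b, 10432 bp upstream of its TSS, others to Chst15 and Ate1.

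Of the 1548 peaks 1119 were assigned to their host by symbol and 25 to the same gene under another symbol. The other 404 (26.1%) were assigned to another gene, against 24.3% in first introns and 26.3% in later introns, and 47 of the 404 were assigned to microRNA genes. The assigned TSS lay a median of 46589 bp away over the 404 peaks assigned to another gene. It lay 25896 bp away over the peaks assigned to their host under either symbol, and 29034 bp over all 1548 peaks. The Slco2a1 peak was assigned to Rab6b, a GTPase of vesicle traffic whose TSS lay 49687 bp away. The Col8a1 peak was assigned to Cmss1, 64265 bp away, and the Samd4 peak to Mir378c, 10916 bp away. AP-1 motifs were at 183 of the 1119 peaks with the host's symbol (16.4%, 14.3% to 18.6%) and at 54 of the 429 with another (12.6%, 9.78% to 16.1%).

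The 1548 peaks lay in 910 host genes, of which 577 held 1 and 39 held at least 5. Oxr1, which protects cells against oxidation, held the most, 2 in intron 2 and 9 in intron 3. The strongest of the 9, at chr15:41727486-41727951, had values of 17.9 and 14.0, and the other 8 had matched values of 4.08 to 7.17. Nsmce2, a SUMO ligase of DNA repair on the same chromosome, held 7, of which the strongest had 11.2 and 12.8 in intron 3. Rspo2, a secreted enhancer of Wnt signalling, held 8 with matched values of 4.02 to 7.76. All 3 genes had most of their peaks at low strength, and only Oxr1 had one with a global IDR of at most 0.05.

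Of the other hosts with most peaks, Pcdh9, a protocadherin, held 9 peaks, the strongest with 12 and 15.7 and the weakest with 7.71 and 3.03. Peak1, a pseudokinase at focal adhesions, held 9 with matched values of 3.21 to 9.10, and Gpc6, a glypican that carries growth factors, held 9 of 3.19 to 6.61. Cacnb2, a subunit of voltage-gated calcium channels, held 8 in intron 2, of 3.05 to 5.84, and 2 of these had an AP-1 motif. Slc14a2, a urea transporter, held 8 of 3.21 to 7.71, none with either motif.

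Long noncoding genes held 281 of the 1548 peaks (18.2%, counting lincRNA, antisense and processed transcripts), and protein-coding genes held 1235 (79.8%). The lincRNA Gm31135 held 9, all in intron 2, over 215 kb of chromosome 8. Their matched values ran from 3.71 to 9.37, and the strongest, at chr8:8254654-8255359, had 9.37 and 17.5. The annotation gave all 9 to Efnb2, an ephrin of vessel formation, whose TSS was 246717 to 461631 bp away. None of the 9 held an AP-1 or a TEAD motif. The lincRNA Gm49171 held 8 peaks, which were given to 4933402J15Rik, and its strongest had 8.75 and 8.72 with a TEAD motif.

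Peaks were also counted in lists of protein-coding genes chosen here for SMCs, the ductus and related pathways. A peak in intron 2 or 3 was found in 712 of 21924 protein-coding genes (3.25%), with a median −log10 p-value of 5.46 over 1243 peaks, of which 190 (15.3%) held an AP-1 motif. Of 1847 protein-coding genes with a peak in any intron, these 712 had one in intron 2 or 3. For the lists these counts were 7 of 19 (SMC contraction), 1 of 1 (ductus), 8 of 13 (TGF-beta and BMP) and 4 of 10 (Hippo and AP-1). They were 12 of 34 (matrix), 9 of 20 (guidance), 12 of 26 (ion channels) and 3 of 9 (chromatin regulators). Genes of the lists may be longer than others, and gene length was neither measured nor matched, so the shares below are counts and not enrichments. Among 39 genes of SMC contraction and its cytoskeleton, 7 (17.9%) held 23 peaks with a median of 4.98, none with a global IDR of at most 0.05, where 31 of the 1243 peaks over all protein-coding genes reached it. Of the 5 strongest, 3 were in Pdlim5, a PDZ and LIM protein of actin filaments. They had 14.0 and 9.78, 9.57 and 13.7, and 16.8 and 8.25. Prkg1, the cyclic GMP kinase that relaxes SMCs, had 13.9 and 8.25 at its strongest peak, which held an AP-1 motif. Myh10, a nonmuscle myosin heavy chain, had 10.2 and 8.25. Lpp held 5, Vcl 2, and Myh9 and Pdlim3 1 each. An AP-1 motif was at 5 of the 23. The contractile markers Acta2, Cnn1, Myh11 and Tagln held none in introns 2 and 3.

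Among 42 genes of TGF-beta and BMP signalling, 8 (19%) held 12 peaks with a median of 6.27. Of the 12, 4 had an AP-1 motif, 3 of them in Ltbp1 and 1 in Bmp6. Ltbp1 held 4 of the 12 peaks. Beside the strongest, a peak at chr17:75104972-75105755 had 10.2 and 8.72 with an AP-1 motif. Ltbp2, another matrix binding protein, had 9.57 and 9.10. Smad6, an inhibitory Smad, had 8.52 and 10.9, and Smad7, which blocks TGF-beta receptors, had 9.57 and 7.42. Of the 12 ductus regulators only Gja5 (8.33%, against 3.25% of all protein-coding genes) held a peak in introns 2 and 3. It encodes the gap junction protein connexin 40, and its peak in intron 2 had 9.37 and 12.8 and an AP-1 motif. None of the others held a peak in any intron, but the study reports PRDM6 binding at or near some of them, such as Jag1 and Myocd.

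Among 36 genes of Hippo signalling and AP-1, 4 (11.1%) held 9 peaks with a median of 6.86, 1 with an AP-1 motif. Wwtr1, which encodes TAZ, held 6 in intron 2. The strongest had 10.2 and 9.10 and the next 7.95 and 9.10. Vgll4, a TEAD cofactor, had 9.28 and 14.9, and Amotl1, a scaffold that retains YAP, had 6.89 and 8.06. No gene of the Fos, Jun or TEAD families on the list held a peak in these introns, where 3.25% of all protein-coding genes did. A gene without an intron 2 or 3 could not hold one, and gene structure was not checked. The absence therefore does not bear on PRDM6 binding at these genes. Mrtfa, which encodes the MRTF-A coactivator and was on no list, is named after its values were seen. It held 7 peaks in intron 3, the strongest with 9.49 and 8.25 and the next with 12.6 and 7.45, but no peak of Mrtfa reached a global IDR of 0.05 or less.

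**Figure D5:**
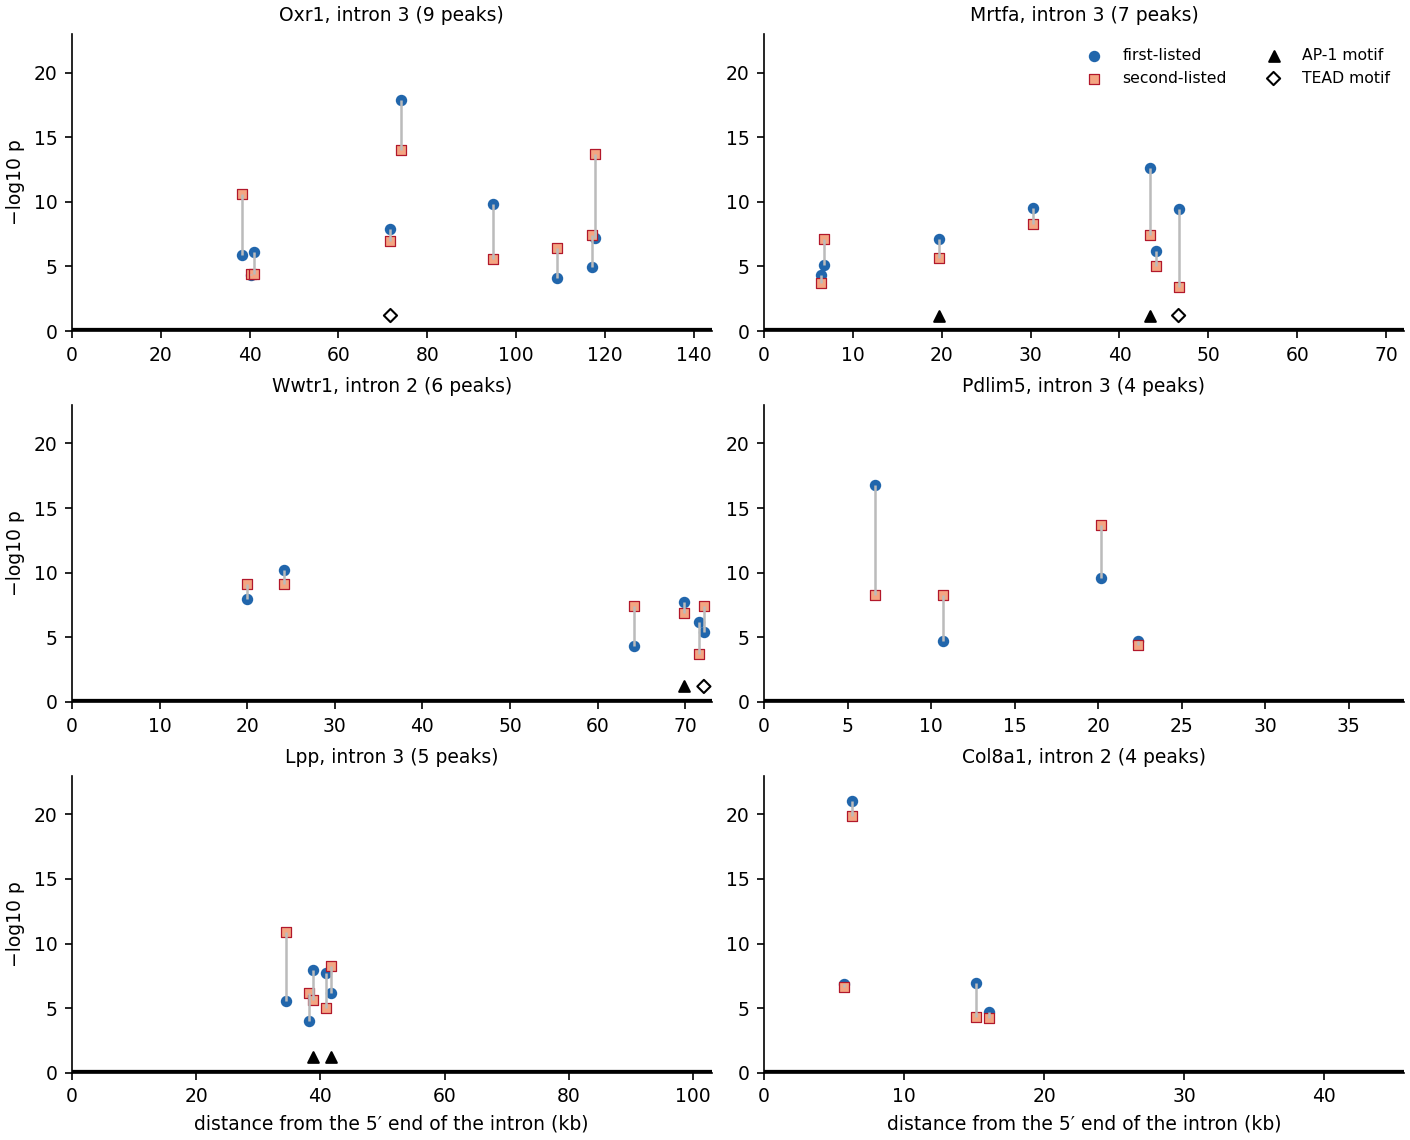
Peaks along 6 host introns, with the distance from the 5′ end of the intron on the x axis (kb, whole intron shown) and the −log10 p-value of each replicate on the y axis (circles first-listed, squares second-listed, joined for each peak). Triangles mark an AP-1 motif and diamonds a TEAD motif at the summit. Intron 2 of Col8a1 holds 1 peak that is high in both replicates beside 3 weak ones, while the 5 peaks of Lpp lie close together in a 103-kb intron.

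Of 140 genes of the matrix and its proteases, 12 (8.57%) held 23 peaks with a median of 6.19, 3 with an AP-1 motif. After the strong peak in Col8a1, the highest were in Col28a1 (8.75 and 9.10), Col14a1 (8.15 and 8.72), Adamts2 (8.12 and 11.8) and Col4a6 (7.95 and 8.25), which encode collagen chains and a procollagen protease. Adamtsl1 held 6. Of 71 guidance genes, 9 (12.7%) held 11 peaks with a median of 5.67, 1 with an AP-1 motif. Ntn4, a netrin of basement membranes, had 14.9 and 10.9, with a global IDR of 0.0501 whose rounded score counts among the 36. Ephb2, an ephrin receptor, had 10.2 and 12.8, and Sema3c, a semaphorin that guides neural crest cells into the outflow tract, had 11.1 and 9.98.

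Of 147 ion channel genes, 12 (8.16%) held 29 peaks with a median of 5.69, 5 with an AP-1 motif. The potassium channel gene Kcnh7 held 7 in its second intron, the strongest with 13 and 12.1 and the next with 9.57 and 10.9. Kcnc2, another potassium channel gene, had 9.37 and 9.98. Kcnma1, the large-conductance potassium channel of SMCs, had 9.06 and 11.8 with a TEAD motif. Ryr2, a calcium release channel, had 13 and 7.42. Of 69 chromatin regulators, 3 (4.35%) held 4 peaks with a median of 6.13, none with an AP-1 motif. The 2 peaks of Hdac4 had 10.2 and 6.61, and 6.42 and 4.98. Kdm6a, a histone demethylase, had 6.42 and 7.14, and Hdac9 had 6.15 and 5.84. No peak of Prdm6 was among the 1548, since its 4 peaks, with matched values of 4.39 to 14.2, were annotated at promoters. That class reaches 3 kb from a TSS, and whether any of the 4 also lies inside an intron of Prdm6 was not checked.

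By chromosome, the share of all peaks that lay in introns 2 and 3 ran from 7.19% on chromosome 12 to 16% on chromosome 14 among the autosomes, and 17 of 93 peaks (18.3%) did on the X chromosome. Differences between chromosomes were not tested.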

How the data were processed

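The authors trimmed and filtered the reads, aligned them to mm10 with BWA, called peaks in each PRDM6 ChIP library against its own input with MACS2 and matched the replicates by IDR; versions are not given in the sources used here. The deposited list held a scaled IDR score for each matched peak, taken here as 540 or more for a global IDR of at most 0.05 and 830 or more for 0.01, both to within rounding. The deposited −log10 values were the p-values of each replicate, the smaller one for the matched peak, and the IDR. The columns for signal and q-value held a placeholder, and no value of the Input group was in the list. Depth per library is not given by the files and was read back in part from the p-values, where a value within 0.0002 of a Poisson tail was counted.

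Members were the rows annotated to intron 2 or 3. Host introns came from GENCODE M21 gene models by transcript ID (1525 with the same version, 14 with another, 9 not found), and sequence from GRCm38.p6 of RefSeq, with coordinates counted from 1. Motifs were searched on both strands, wholly inside 201 bases around the summit, and compared with flanks by exact two-sided McNemar tests adjusted over 4 motifs by Benjamini and Hochberg. Shares of peaks were compared by exact two-sided Fisher tests adjusted over 15, with a threshold of 0.05. Wilson and Newcombe intervals (95%) cover counting error over peaks only. The software was pysam 0.24.0 for sequence, SciPy 1.17.1 for tests, matplotlib 3.10.9 for figures, and pandas 2.3.3 and NumPy 2.4.6 on Python 3.11.15, and the counting and the tests were checked on made data with known answers.

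Named were the 12 strongest peaks, the 10 host genes with most peaks (ties by summed score), up to 5 peaks of each of 8 gene lists by −log10 p, and Prdm6, beside the strongest peaks whose sequence is shown for each motif. Htr2a, Atp2b4, Eps8, Pde4d, Thrb, Dusp1 and Mrtfa were chosen after their values were seen. The members, the lists and the tests were chosen with earlier results of these data known. Alternatives were IDR limits, 1 peak for each host gene, other windows and flanks, the summits or p-values of 1 replicate, agreement of the summits, intron numbers from the gene models, chromosome 15 left out and the quantile 0.75 in place of the median.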

Additional observations from a re-analysis of the deposited data

How the results depend on the processing

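No paired analysis was possible because the list holds no value of the Input group to pair with a PRDM6 ChIP sample, and it names the replicates only by order. The tests of summits against flanks pair windows of the same peak, not samples. The number of peaks fell from 1548 to 36 at an IDR limit of 0.05 and to 728 with replicate summits within 100 bp. The AP-1 ratio kept its direction in all 10 alternatives and passed the test in 8. It did not pass with fewer peaks, where it was 8.0 (36 peaks, adjusted exact McNemar p 0.156) and 3.0 (8 peaks, IDR at most 0.01, unadjusted exact McNemar p 0.625). The TEAD ratio passed in 8 of 9, and was 6.0 (adjusted p 0.250) among the 36. The ratio for TTTCAT or TTTCCT passed in 6 of 10, and was 1.07 among the 36 and 1.25 among the 8 (adjusted p 1.00 in both), and 1.08 with summits within 100 bp (adjusted p 0.265). The CArG ratio was 1.58 with a window of 200 bp, past the threshold (adjusted p 0.0354). With the summits of 1 replicate the ratios were 3.40 to 4.25 for AP-1, 1.66 to 2.33 for TEAD, 1.07 to 1.16 for the 6-letter motif and 1.62 to 2.23 for CArG. No ratio could be formed where the flanks held no match, for TEAD among the 8 peaks and for CArG among the 36 and the 8.

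None of 108 alternatives of the share comparisons passed the threshold (smallest adjusted exact Fisher p 0.216, with 3 unadjusted values under 0.05), 88 kept their direction and 20 changed it. The 3 were all differences below 0 from first introns, -4.24 points in strength with the second-listed values (exact Fisher p 0.0144), -2.57 in the IDR share with summits within 100 bp (0.0186) and -1.23 in the IDR share with intron numbers from gene models (0.0422). At an IDR limit of 0.05 the AP-1 difference from first introns was -8.81 points, the TEAD difference 8.05 points, the TEAD difference of intron 2 from intron 3 2.01 points, and the width difference 3.42 points from later introns and 14.4 points between introns 2 and 3, with strength left out because every such peak lies above the median. With intron numbers from gene models the AP-1 difference from first introns was -0.258 and the IDR difference between introns 2 and 3 0.381. With a 50-bp window the TEAD difference was 0.183 from first introns and 0.610 between introns 2 and 3, where a 200-bp window gave 0.262. With a limit at the quantile 0.75 in place of the median the strength difference from later introns was 0.343 and the width difference between introns 2 and 3 0.454. With 1 peak for each host gene the strength and IDR differences between introns 2 and 3 were 1.02 and 0.177, and the width difference from first introns 0.301. Without chromosome 15 the IDR difference between introns 2 and 3 was 0.0989 and the width difference from later introns 0.196. With 1 replicate alone the ranges were 0.0894 to 0.144, -0.321 to -0.0512 and 0.744 to 2.15 for AP-1 against first introns, later introns and between introns 2 and 3, -0.858 to -0.00216, 0.623 to 1.18 and -1.12 to 0.95 for TEAD, and -4.24 to -0.122, -1.20 to 0.170 and -1.11 to 1.48 for strength. The cause of these changes was not tested. Where heights could be read back, median heights of 14 and 13 fragments limit what a single peak can show.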
